A study of Homo sapiens with 9 samples.

Results

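The solute carriers described here are the SLC1 to SLC16 genes measured in A549 cells, an established epithelial line from a human lung adenocarcinoma. Members were chosen by gene symbol, with earlier results of these data known. They were every gene of the deposited FPKM tables named SLC, a family number from 1 to 16, the letter A and a member number. A set of 8 such genes (SLC2A1, SLC3A2, SLC7A1, SLC7A5, SLC7A11, SLC11A2, SLC13A2 and SLC16A3) was left out. This gave 126 gene identifiers of 57751 in the FPKM tables, for 125 symbols in 16 families, since SLC5A3 had 2 identifiers. The count table of 51796 identifiers held 125 of them. The FPKM tables alone held the second SLC5A3 identifier.

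All groups were A549 cells kept for 7 days, with 3 RNA libraries each. The control group received DMSO, the solvent. The GSK591 group received 1 µM of an inhibitor of PRMT5, the main enzyme of symmetric arginine dimethylation. The MS023 group received 1 µM of a blocker of type I arginine methyltransferases (PRMT1 is the main one), the writers of asymmetric dimethylarginine. Plates for DMSO started from 0.2 and those for both inhibitors from 0.4 times 1e5 cells, so in both comparisons with DMSO the inhibitor and the seeding cannot be told apart. A single cell line was used and the labels name no changed allele. The labels do not say whether the 3 libraries of a group came from separate cultures, so p-values measure the spread between libraries, which may be technical. In bulk RNA, fewer cells of a type and less RNA per cell cannot be told apart.

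Total counts ranged from 31398075 to 51244525 per library. Mitochondrial rRNA made up 932.5 CPM (counts over the TMM-scaled library total, per 1e6) in GSK591 replicate 3, against 0.410 to 20.7 CPM elsewhere, with 20.7 CPM in DMSO replicate 1. Its part in the results was not tested, and counts of members are given below with and without these 2 libraries. All 6 epithelial markers were measured. Their summed level was 6361 to 6487 CPM in DMSO, 7529 to 7797 in GSK591 and 5084 to 5286 in MS023 and was nearly all KRT8, KRT18 and KRT7. EPCAM went the other way, with log2 changes of -1.07 ± 0.09 in GSK591 and 0.64 ± 0.08 in MS023, and CLDN4 rose in MS023 (0.47 ± 0.09). Of the 6, 2 rose and 1 fell in GSK591, and 2 rose and 4 fell in MS023. The part of these differences in the results was not tested. Of 6 leukocyte markers, 5 were too low to test, MS4A1 was at 0 in every library, and the sum of all 6, nearly all of it CD14, was 6.39 to 9.07 CPM. Endothelial and fibroblast markers summed to 1.13 to 1.36 CPM in DMSO, 2.16 to 2.45 in GSK591 and 1.22 to 1.31 in MS023. Both that could be tested, LUM (0.85 ± 0.18) and CDH5 (1.53 ± 0.61), rose in GSK591. In MS023, 1 of these 2 markers was called higher and 1 lower, with a median log2 change of 1.04. The part of these markers in the results was not tested.

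Solute carriers are membrane proteins that move sugars, amino acids, ions and organic acids across membranes without splitting ATP. Many are secondary active transporters: they couple the uphill movement of one solute to sodium, proton or chloride gradients that the sodium pump and bicarbonate transport maintain. In lung epithelium they supply glutamine, glucose and vitamins, set cell volume and internal pH, and move chloride for fluid secretion. Most of the families treated here work at the plasma membrane, although SLC2A6, SLC9A7, SLC9A9, SLC11A1 and SLC15A4 are known mainly from endosomes, lysosomes or the Golgi.

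Promoter sequences of 3 members are shown, because these genes held the top 3 places by FPKM in DMSO and differed in the direction of their changes. SLC12A2 and SLC1A5 were lower in GSK591 and higher in MS023, and SLC16A4 went the other way. Each sequence is the RefSeq window from 250 bases before to 50 bases after the start on GRCh38.p14, which is not the hg19 build of the deposited files. Capitals mark matches, on either strand, to GGGCGG (GC box) or CCAAT.
SLC12A2, chr5:128083516-128083815, plus strand: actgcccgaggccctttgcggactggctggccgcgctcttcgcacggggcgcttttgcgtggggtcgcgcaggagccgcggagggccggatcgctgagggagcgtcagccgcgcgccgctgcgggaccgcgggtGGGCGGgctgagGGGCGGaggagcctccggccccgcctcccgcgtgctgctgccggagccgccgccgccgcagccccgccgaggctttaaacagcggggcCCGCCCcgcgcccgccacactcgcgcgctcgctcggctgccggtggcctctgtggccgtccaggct
SLC1A5, chr19:46788545-46788844, minus strand: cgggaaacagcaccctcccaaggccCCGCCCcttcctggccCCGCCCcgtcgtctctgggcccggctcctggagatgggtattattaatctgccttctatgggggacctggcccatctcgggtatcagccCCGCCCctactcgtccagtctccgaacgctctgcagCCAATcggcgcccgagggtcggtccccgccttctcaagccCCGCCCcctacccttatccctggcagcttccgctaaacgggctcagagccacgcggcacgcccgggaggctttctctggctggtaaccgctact
SLC16A4, chr1:110390977-110391276, minus strand: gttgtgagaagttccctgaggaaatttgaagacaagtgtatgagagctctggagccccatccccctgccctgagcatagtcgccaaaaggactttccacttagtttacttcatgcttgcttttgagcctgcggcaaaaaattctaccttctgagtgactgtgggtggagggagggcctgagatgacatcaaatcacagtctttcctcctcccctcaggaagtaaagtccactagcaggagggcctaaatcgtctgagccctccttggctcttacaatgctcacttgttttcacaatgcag
The SLC12A2 window held 3 GC boxes, a GC content of 78.7% and a ratio of observed to expected CpG of 1.01. The SLC1A5 window held 4 GC boxes and 1 CCAAT, with a GC content of 66.7% and a CpG ratio of 0.760. SLC16A4 had none of the motifs searched, a GC content of 49.3% and a CpG ratio of 0.165. The motifs searched, on both strands, were the TATA box TATAAA, the nuclear factor Y box CCAAT, the GC box GGGCGG and the amino acid response core TGATGNAA. None of them overlapped another in these 3 windows.

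RefSeq windows matched 95 of the 125 symbols. Members with enough counts to test (69 windows) and members without (26 windows) differed in these features, given here as a description. The median GC content was 64.7% in the tested members, 50.5% in the others and 58.7% over all 35116 RefSeq windows. GGGCGG was present in 55.1% of the tested members' windows (38), 26.9% of the others (7) and 45.0% of all windows. TATAAA was present in 5.80% of the tested members' windows (4), 23.1% of the others (6) and 11.5% of all. CCAAT was found in 26.1%, 30.8% and 34.6%, respectively. TGATGNAA was present in windows of 2 tested members, SLC9A9 and SLC11A1 (2.90%), in those of 3 untested members (11.5%) and in 3.62% of all windows. A match says only that these letters are in the window.

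By level per gene length, a small number of carriers stood well above the rest. In FPKM, 12 of the 126 identifiers averaged at least 10 in DMSO, 33 lay between 1 and 10, and 81 were under 1. The corresponding numbers were 14, 34 and 78 in GSK591 and 14, 33 and 79 in MS023. The highest level in DMSO was that of SLC12A2, the sodium, potassium and chloride cotransporter NKCC1, at 104 ± 3.32 FPKM (SD, n = 3). SLC1A5, the glutamine transporter ASCT2, followed at 101 ± 2.64 FPKM, and the spread of these neighbours overlapped. SLC16A4, a monocarboxylate transporter family member of poorly known substrate, stood at 46.0 ± 2.28 FPKM beside SLC4A2, the anion exchanger AE2, at 43.5 ± 1.65 FPKM, again within their spread. SLC6A6, the taurine transporter, came next at 38.6 ± 0.652 FPKM.

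The order changed with both inhibitors. In GSK591, SLC1A5 was first at 69.2 ± 2.16 FPKM and SLC4A2 was next at 62.2 ± 3.87 FPKM, while SLC12A2 at 46.5 ± 2.54 FPKM took place 4. In MS023, SLC12A2 was first at 170 ± 6.45 FPKM and SLC1A5 was at 117 ± 2.54 FPKM. SLC16A4 went from place 3 in DMSO to place 7 in MS023, at 24.4 ± 1.75 FPKM. SLC2A3 went from place 11 in DMSO to place 20 in GSK591.

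**Figure D1:**
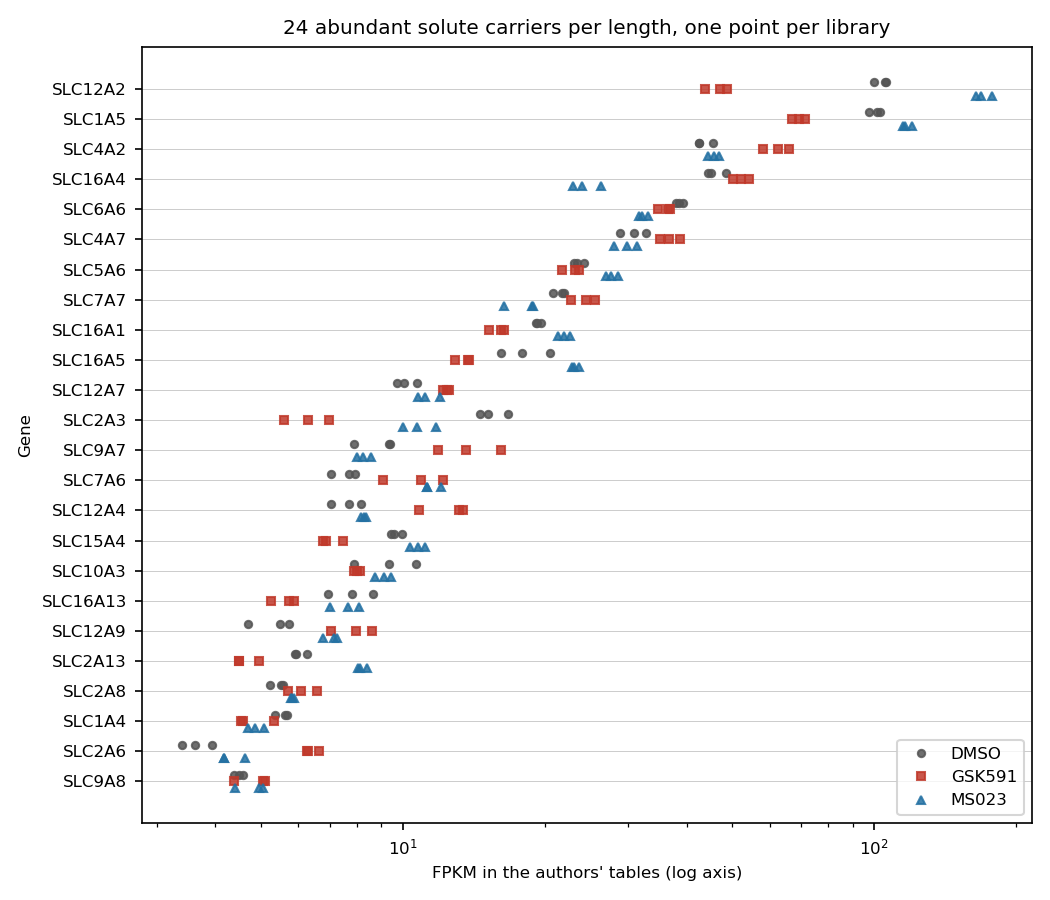
FPKM of 24 solute carriers of high mean level per gene length (log axis), 1 point per library for DMSO, GSK591 and MS023. SLC12A2 ran from 46.5 FPKM on average in GSK591 to 170 FPKM in MS023, while most other genes kept their 3 groups close together.

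The members' summed transcript level differed between the groups, and almost all of that difference lay in SLC12A2. Summed over the 125 members in the count table, the level was 2963 ± 90.5 CPM in DMSO, 2526 ± 13.5 in GSK591 and 3484 ± 16.9 in MS023 (SD, n = 3). SLC12A2 made up 27.6% ± 0.323 of that sum in DMSO, 14% ± 0.402 in GSK591 and 38.2% ± 0.656 in MS023. Without SLC12A2 the sum was 2144 ± 55.8 CPM in DMSO, 2173 ± 3.26 in GSK591 and 2154 ± 25.3 in MS023, with overlapping libraries. These sums are not per length and were not tested.

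**Figure D2:**
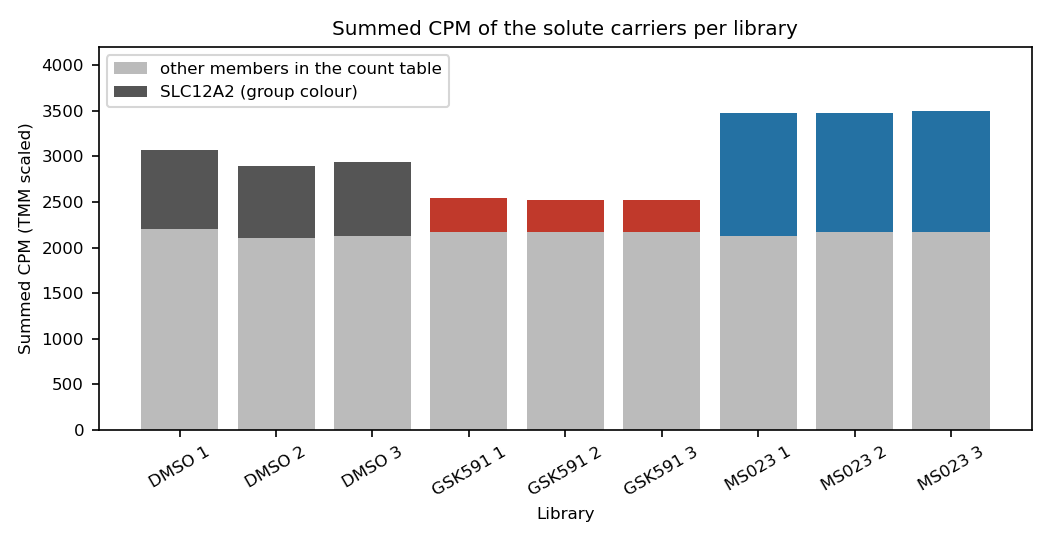
Summed CPM of the solute carriers in each of the 9 libraries, with SLC12A2 in the group's colour on top of all others in grey. The grey part was about level across the libraries (group means of 2144, 2173 and 2154 CPM), and the coloured part was smallest in GSK591 and tallest in MS023.

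Of the 126 members, 91 had enough counts to be tested, and 29 of these averaged under 1 CPM over all libraries. A member is called where edgeR's quasi-likelihood test gave an adjusted p under 0.05 (Benjamini-Hochberg over 18292 genes). In GSK591 against DMSO, 66 members were called (72.5%), where 62.6% of all genes tested were called. Of these, 44 were higher and 22 lower, against backgrounds of 30.1% and 32.4%. The members' median log2 change was 0.26, and that of all genes tested was 0.0058. At least 2-fold, 19 members were higher (background 9.11%) and 5 lower (background 2.68%), and 14 of the 19 averaged under 1 CPM.

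In MS023 against DMSO, 56 members were called (61.5%), with a background of 51.0%. Here 39 were higher (background 25.1%) and 17 lower (background 25.9%), with a median log2 change of 0.19 in the members and -0.003 in all genes. Changes of at least 2-fold were called in 10 members upward (background 4.26%) and 4 downward (background 3.94%), of which 6 and 4 averaged under 1 CPM. Between the inhibitors, MS023 against GSK591, 63 members were called (69.2%, background 65.4%), 26 higher (background 33.6%) and 37 lower (background 31.7%) in MS023. At least 2-fold, 7 were higher in MS023 (background 4.99%) and 19 lower (background 10.7%), of which 3 and 13 averaged under 1 CPM, and the median log2 difference was -0.16, against 0.0017 in all genes. That median was -0.052 without GSK591 replicate 1 and -0.10 without GSK591 replicate 2. It was -0.032 with a filter of 1 CPM in 3 libraries, where 24 members were higher and 25 lower, and turned to 0.042 in FPKM. Among the 3 groups, 80 of 91 members were called in any way (87.9%, background 78.1%). Without DMSO replicate 1 and GSK591 replicate 3 93 members could be tested, and those called were 61 (background 56.9%), 55 (49.6%) and 66 (62.2%) in the 3 comparisons. Both comparisons with DMSO share the same DMSO libraries.

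Counting the groups' libraries without a model gave 68, 64 and 67 of 91 members whose groups did not overlap in CPM, in GSK591 against DMSO, MS023 against DMSO and MS023 against GSK591. The backgrounds were 65.6%, 57.5% and 70.5%.

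**Figure D3:**
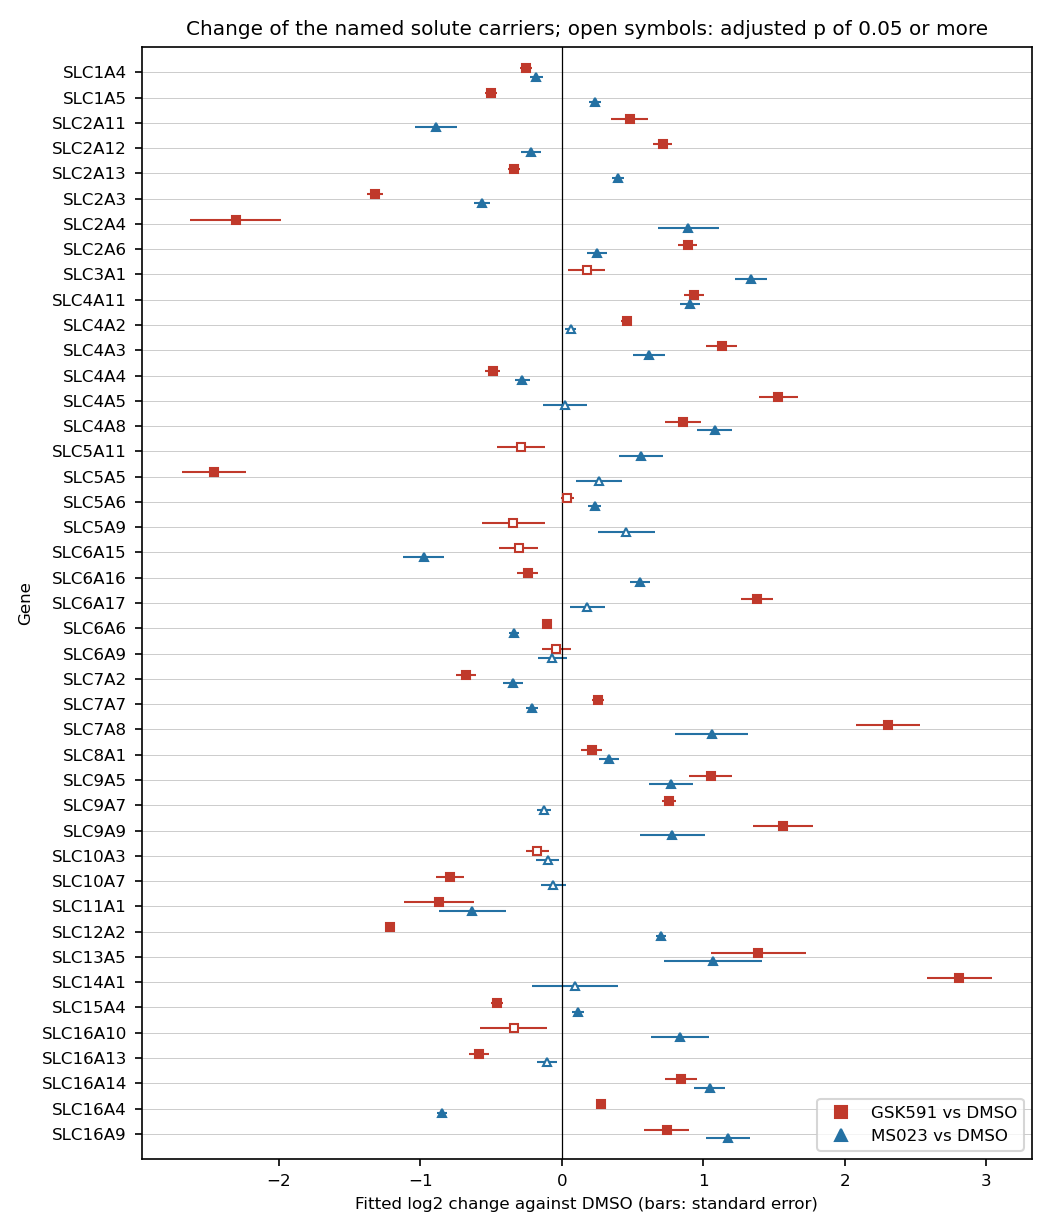
Fitted log2 change against DMSO of the solute carriers picked by the naming rule (called at 1 CPM or more, highest of a family, or amino acid response) and tested, with standard errors, as squares for GSK591 and triangles for MS023; open symbols mark an adjusted p of 0.05 or more. Among the genes plotted, the ends of the GSK591 range were SLC14A1 at 2.81 and SLC5A5 at -2.46, and those of MS023 were SLC3A1 at 1.34 and SLC6A15 at -0.98.

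Among amino acid carriers of the SLC1 family, SLC1A5 and SLC1A4 were lower in GSK591 and SLC1A1 was higher. SLC1A5, the main glutamine importer of many tumour lines (hg19 chr19:47278140-47291851), had 339, 330 and 337 CPM in DMSO, 241, 225 and 245 CPM in GSK591, and 375, 405 and 400 CPM in MS023. The 3 groups did not overlap, with GSK591 lowest and MS023 highest. Its log2 change was -0.50 ± 0.04 in GSK591 (fold 1.41 lower, edgeR adjusted p = 1.24e-07) and 0.23 ± 0.04 in MS023 (1.17-fold higher, adjusted p = 0.000397). Between the inhibitors it differed by 0.73 ± 0.04 on the log2 scale, higher in MS023 (adjusted p = 1.33e-09).

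SLC1A4, the related alanine, serine and cysteine exchanger ASCT1, was slightly lower with both inhibitors. It had 29.5, 29.5 and 30.7 CPM in DMSO, 25.8, 25 and 24.5 in GSK591 and 26.0, 27.2 and 26.1 in MS023. Its log2 changes were -0.25 ± 0.04 (adjusted p = 0.000129) and -0.18 ± 0.04 (adjusted p = 0.00265), and the second was not called in any fit of FPKM (adjusted p up to 0.129). SLC1A1, the glutamate transporter EAAT3, averaged 7.62 CPM in DMSO and 12.1 in GSK591, a log2 change of 0.68 ± 0.09. Its reads cannot be told apart from those of SPATA6L, an overlapping gene on the other strand at 5.01 CPM with a log2 change of 1.12.

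SLC1A4, SLC1A5, SLC6A9 and SLC7A3 are known targets of the amino acid response, in which amino acid shortage raises their transcription. None of the 4 rose in GSK591: 2 fell, the glycine transporter SLC6A9 was not called (log2 change -0.04 ± 0.10, 6.17 CPM in DMSO against 6.04), and SLC7A3 had 4, 1 and 0 counts in the 3 groups and was not tested. In MS023 SLC1A5 rose, SLC1A4 fell and SLC6A9 was not called (log2 change -0.07 ± 0.10). SLC6A9 shares 5029 bases with CCDC24 on the other strand, at 5.68 CPM with log2 changes of 0.07 and 0.29. Reads of both cannot be told apart there.

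SLC3A1, the heavy chain rBAT that brings the cystine and dibasic amino acid exchanger to the membrane (hg19 chr2:44502599-44548633), was higher in MS023. It had 2.38, 2.41 and 2.66 CPM in DMSO, 3.11, 3.06 and 2.33 in GSK591, and 6.46, 5.88 and 6.49 in MS023. The MS023 libraries stood above all others, while DMSO and GSK591 overlapped. The log2 change was 1.34 ± 0.12 in MS023 (2.52-fold, adjusted p = 2.63e-07) and 0.18 ± 0.13 in GSK591 (adjusted p = 0.252). Without GSK591 replicate 3, the library high in mitochondrial rRNA, the GSK591 value was called (log2 0.33, adjusted p = 0.0378). SLC3A1 overlaps PREPL on the other strand, a gene at 109 CPM whose log2 changes were -0.28 and -0.06. The strand setting of the counting is not given, so reads of the shared bases cannot be told apart. The light chain partner SLC7A9 had 38, 39 and 12 counts over the DMSO, GSK591 and MS023 groups, a log2 change of -1.71 ± 0.45 in MS023 (adjusted p = 0.00549).

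In the SLC6 family of sodium and chloride coupled carriers, 11 of 19 members were tested. GSK591 called 3 higher and 4 lower (background 62.6%), MS023 also 3 and 4 (background 51.0%), and between the inhibitors 2 were higher and 7 lower in MS023 (background 65.4%). SLC6A6, the taurine transporter and the family's most abundant member, had 298, 288 and 296 CPM in DMSO, 272, 276 and 273 in GSK591 and 235, 233 and 230 in MS023. Its decrease in MS023 was -0.34 ± 0.03 on the log2 scale (adjusted p = 1.46e-06). That in GSK591, -0.10 ± 0.03 (adjusted p = 0.0156), lost its call without DMSO replicate 1, GSK591 replicate 1 or GSK591 replicate 3 (adjusted p of 0.0733, 0.0888 and 0.0708).

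SLC6A17, a synaptic vesicle carrier of neutral amino acids, was higher in GSK591. Its libraries held 3.5, 3.42 and 3.22 CPM in DMSO, 9.13, 7.69 and 9.51 in GSK591 and 3.32, 3.83 and 4.37 in MS023. GSK591 stood apart from both other groups, with a log2 change of 1.38 ± 0.11 (adjusted p = 7.03e-08). In MS023 the log2 change was 0.18 ± 0.12 (adjusted p = 0.24), and the inhibitors differed by -1.20 ± 0.11 (adjusted p = 1.83e-07).

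SLC6A15, which takes up branched-chain amino acids and proline, fell in MS023, from 2.66, 2.25 and 2.61 CPM in DMSO to 1.11, 1.33 and 1.39. The log2 change was -0.98 ± 0.15 (adjusted p = 5.98e-05), and in GSK591 it was -0.31 ± 0.14 (adjusted p = 0.0667, and 0.0497 without DMSO replicate 2). SLC6A16, an orphan member, rose in MS023 from 6.41, 7.00 and 6.42 CPM to 9.68, 10.1 and 9.38, a log2 change of 0.55 ± 0.07 (adjusted p = 1.19e-05). Its value in GSK591, -0.24 ± 0.07 (adjusted p = 0.0114), was not called without DMSO replicate 2 (adjusted p = 0.0721) or GSK591 replicate 3 (0.0594) and turned to 0.06 to 0.11 in FPKM. SLC6A8, the creatine transporter, averaged 14.6 CPM in DMSO, 12.6 in GSK591 and 18.0 in MS023, with log2 changes of -0.21 ± 0.07 and 0.31 ± 0.06.

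Of the low members of this family, the GABA transporters stood out by size. SLC6A13 (GAT2) had 25, 67 and 3 counts over the DMSO, GSK591 and MS023 libraries. SLC6A11 (GAT3) had 5, 44 and 18 counts. Both were higher in GSK591 (adjusted p of 0.00525 and 4.39e-05), at under 1 CPM in every library. Both passed the count filter only with their GSK591 libraries, so these p-values are no independent support for the increases.

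Cationic amino acid carriers of the SLC7 family moved in different directions. SLC7A2, the transporter CAT2 of arginine, lysine and ornithine, had 34.4, 31.2 and 29.8 CPM in DMSO, 21.8, 17.4 and 20.4 in GSK591 and 25.9, 24 and 24.9 in MS023. No treated library reached the lowest DMSO library. The log2 changes were -0.68 ± 0.07 (adjusted p = 1.37e-06) and -0.35 ± 0.07 (adjusted p = 0.000948).

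SLC7A7, the exchanger y+LAT1 that sends arginine and lysine out in exchange for neutral amino acids, had 53.2, 48.8 and 49.8 CPM in DMSO, 62.2, 60.3 and 58.7 in GSK591 and 43.9, 45.0 and 42.1 in MS023. The groups were separate, with GSK591 highest. It rose in GSK591 (0.26 ± 0.04, adjusted p = 0.000104) and fell in MS023 (-0.21 ± 0.04, adjusted p = 0.000859), and the difference between the inhibitors was itself called at -0.47 ± 0.04 (adjusted p = 1.92e-07). Its close relative SLC7A6 (y+LAT2) was higher with both, at 22.5 CPM in DMSO, 26.5 in GSK591 and 32.6 in MS023, with log2 changes of 0.23 ± 0.05 and 0.53 ± 0.05.

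SLC7A8, the neutral amino acid exchanger LAT2, was low in DMSO, with 0.375, 0.303 and 0.303 CPM. It reached 1.93, 1.58 and 1.37 CPM in GSK591 and 0.605, 0.703 and 0.729 CPM in MS023. In counts over 3 libraries this was 40, 192 and 89. The groups did not overlap, and the log2 changes were 2.31 ± 0.23 in GSK591 (4.95-fold, adjusted p = 5.43e-07) and 1.06 ± 0.26 in MS023 (adjusted p = 0.00315).

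Sugar carriers of the SLC2 (GLUT) family mostly carry glucose, fructose or polyols down their gradients. All 9 tested of 13 members were called in GSK591, 6 higher and 3 lower, where 62.6% of all genes were called. In MS023 4 were higher and 3 lower (background 51.0%). SLC2A3, the high-affinity glucose transporter GLUT3 (hg19 chr12:8071826-8088871), had 74.6, 65.7 and 63.8 CPM in DMSO, 28.6, 26.3 and 26.7 in GSK591 and 45.9, 44.7 and 47.2 in MS023. The 3 groups were separate, in the order DMSO, MS023, GSK591 from the highest down. Its log2 changes were -1.32 ± 0.06 in GSK591 (2.50-fold lower, adjusted p = 6.68e-11) and -0.56 ± 0.05 in MS023 (1.48-fold lower, adjusted p = 8.03e-07). SLC2A3 shares much of its sequence with SLC2A14, which had 32, 79 and 22 counts over the groups, so a split of shared reads between both is uncertain.

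SLC2A13, a proton coupled myo-inositol transporter, fell in GSK591 and rose in MS023. It had 41.0, 40.1 and 39.1 CPM in DMSO, 30.7, 33.3 and 31.2 in GSK591 and 51.4, 54.9 and 52.1 in MS023. The groups were separate, and the log2 changes were -0.34 ± 0.04 (adjusted p = 8.55e-06) and 0.40 ± 0.04 (adjusted p = 2.42e-06). SLC5A3, the sodium coupled myo-inositol transporter, was not called in any comparison, at 45.8, 44.5 and 48.6 CPM in DMSO, GSK591 and MS023. Its log2 changes were -0.04 ± 0.06 and 0.09 ± 0.06. It shares 32690 bases with MRPS6 on the same strand, a gene at 14.6 CPM with called log2 changes of -0.62 and -0.91, so reads of both cannot be told apart there.

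SLC2A12 (GLUT12) and SLC2A6 (GLUT6) were higher in GSK591. SLC2A12 had 8.97, 8.63 and 7.95 CPM in DMSO, 13.0, 13.9 and 14.7 in GSK591 and 7.30, 7.18 and 7.43 in MS023, with a log2 change of 0.71 ± 0.07 in GSK591 (adjusted p = 4.16e-07). In MS023 it was -0.22 ± 0.07 (adjusted p = 0.0208), a call lost on leaving out DMSO replicate 1, DMSO replicate 2 or MS023 replicate 2 (adjusted p of 0.0933, 0.0728 and 0.0605). SLC2A12 overlaps TBPL1 on the other strand, at 17.1 CPM with a log2 change of -0.13 in GSK591. SLC2A6 had 12.1, 11 and 11.2 CPM in DMSO, 21.1, 19.8 and 22.3 in GSK591 and 12.5, 14.4 and 13.7 in MS023. Both changes of SLC2A6 were upward, 0.89 ± 0.07 in GSK591 (adjusted p = 3.66e-08) and 0.25 ± 0.07 in MS023 (adjusted p = 0.00875).

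SLC2A11, a glucose and fructose carrier, rose in GSK591 and fell in MS023. Its libraries held 2.53, 2.43 and 2.23 CPM in DMSO, 3.20, 3.55 and 3.23 in GSK591 and 1.07, 1.38 and 1.43 in MS023. The log2 changes were 0.48 ± 0.13 (adjusted p = 0.00527) and -0.89 ± 0.15 (adjusted p = 0.000153), and the inhibitors differed by -1.37 ± 0.14 (adjusted p = 7.23e-07). The GSK591 call was absent in all fits of FPKM.

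SLC2A4, the insulin-regulated glucose transporter GLUT4 of muscle and fat (hg19 chr17:7184986-7191576), was near 1 CPM or less in most libraries. It had 1.06, 0.780 and 0.929 CPM in DMSO, 0.186, 0.118 and 0.240 in GSK591 and 1.60, 1.38 and 2.12 in MS023, which are 113, 22 and 225 counts. The log2 changes were -2.31 ± 0.32 (adjusted p = 1.87e-05) and 0.89 ± 0.21 (adjusted p = 0.00283). Its neighbour YBX2, which shares 6 bases with it on the other strand, averaged 2.66 CPM and had log2 changes of -2.52 and 1.03.

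The sodium coupled carriers of the SLC5 family had 3 of 8 tested members called in GSK591, 2 higher and 1 lower (background 62.6%), and 3 higher in MS023 (background 51.0%). SLC5A5, the iodide transporter NIS that serves the thyroid (hg19 chr19:17982782-18005983), had 2.47, 2.25 and 3.05 CPM in DMSO, 0.248, 0.611 and 0.501 in GSK591 and 3.36, 2.89 and 3.08 in MS023. GSK591 lay below both other groups, which overlapped each other. Its log2 change was -2.46 ± 0.23 in GSK591 (5.50-fold lower, adjusted p = 2.64e-07) and 0.26 ± 0.17 in MS023 (adjusted p = 0.202), and the inhibitors differed by 2.72 ± 0.22 (adjusted p = 4.76e-08).

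SLC5A6, the multivitamin transporter of biotin, pantothenate and lipoate, was higher in MS023. It had 68.3, 61.1 and 64.6 CPM in DMSO, 66.7, 65.7 and 66.7 in GSK591 and 72.1, 80.2 and 75.5 in MS023. The log2 change was 0.23 ± 0.05 in MS023 (adjusted p = 0.000767) and 0.04 ± 0.05 in GSK591 (adjusted p = 0.504). It overlaps ATRAID on the other strand, at 75.8 CPM with log2 changes of -0.55 and -0.50. SLC5A11, an inositol carrier, averaged 1.86 CPM in DMSO, 1.52 in GSK591 and 2.76 in MS023, with a called log2 change of 0.56 ± 0.15 in MS023. SLC5A9, a mannose and glucose carrier, was called between the inhibitors but not against DMSO, at 0.80 ± 0.21 (0.794 CPM in GSK591, 1.37 in MS023). Its MS023 value against DMSO, 0.46 ± 0.20 (adjusted p = 0.0714), was called without GSK591 replicate 3 (adjusted p = 0.0449).

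Among ion carriers, SLC12A2 (hg19 chr5:127419458-127525380) had the highest level per length in DMSO, fell in GSK591 and rose in MS023. NKCC1 brings sodium, potassium and chloride into the cell together, which loads epithelia with chloride for secretion and restores volume after shrinkage. Its libraries held 858, 792 and 807 CPM in DMSO, 367, 347 and 345 in GSK591 and 1348, 1303 and 1338 in MS023. The groups were far apart, with GSK591 lowest and MS023 highest. The log2 change was -1.21 ± 0.04 in GSK591 (2.32-fold lower, adjusted p = 2.73e-12) and 0.70 ± 0.04 in MS023 (1.62-fold higher, adjusted p = 1e-09). MS023 exceeded GSK591 by 1.91 ± 0.04 on the log2 scale (3.77-fold, adjusted p = 1.29e-14).

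The potassium and chloride cotransporters work in the opposite sense, letting both ions out. SLC12A4 (KCC1) averaged 30.3 CPM in DMSO, 48.7 in GSK591 and 32.8 in MS023, with log2 changes of 0.68 ± 0.04 (adjusted p = 6.18e-09) and 0.11 ± 0.04 (adjusted p = 0.0462). SLC12A7 (KCC4) averaged 62.0, 80.3 and 71.5 CPM, with 0.37 ± 0.05 and 0.21 ± 0.05. SLC12A9, a related protein, averaged 19.3, 28.4 and 24.3 CPM, with 0.56 ± 0.05 and 0.33 ± 0.05. These 3 genes were thus higher with both inhibitors and, between the inhibitors, lower in MS023.

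SLC12A8, at 53, 181 and 13 counts over the groups, was the largest difference between the inhibitors in this family, at -3.90 ± 0.36 (adjusted p = 2.26e-07). It shares 53617 bases with ZNF148 on the same strand, a gene at 76.0 CPM with log2 changes of -0.18 and -0.02, and their reads there cannot be told apart.

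**Figure D4:**
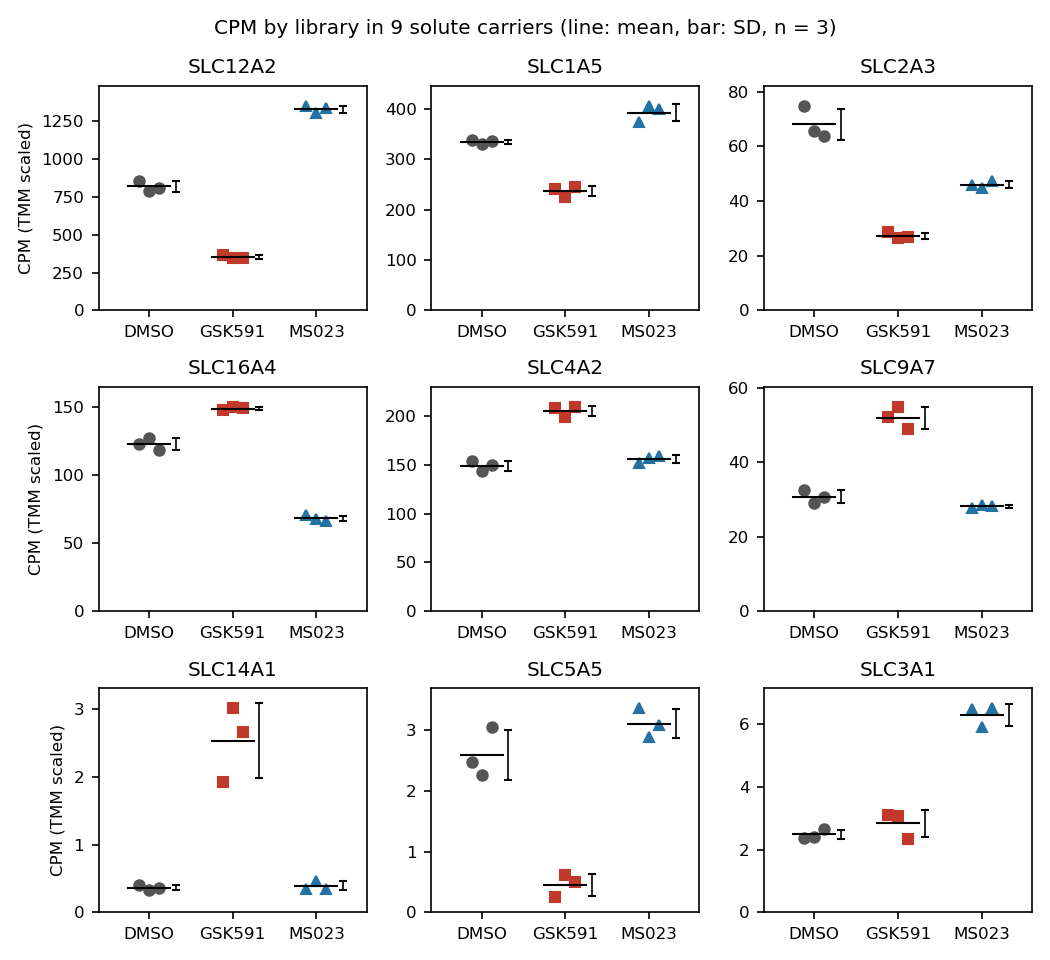
CPM in each library for 9 solute carriers, 1 point per library, with group means (lines) and SDs (bars); each panel has its own axis from 0. SLC12A2, SLC1A5 and SLC5A5 were lowest in GSK591, SLC4A2, SLC9A7 and SLC14A1 were highest there, SLC2A3 was highest in DMSO, SLC16A4 was lowest in MS023 and SLC3A1 was highest in MS023.

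Bicarbonate carriers of the SLC4 family set internal pH by exchanging bicarbonate with chloride or taking it in with sodium. All 8 tested of 10 members were called in GSK591, 7 higher (background 30.1%) and 1 lower (background 32.4%). In MS023 3 were higher and 2 lower, where 51.0% of all genes were called. SLC4A2, the chloride and bicarbonate exchanger AE2, had 154, 144 and 149 CPM in DMSO, 208, 198 and 208 in GSK591 and 151, 157 and 159 in MS023. GSK591 stood above both other groups, with a log2 change of 0.46 ± 0.04 (adjusted p = 1.01e-07), against 0.06 ± 0.04 in MS023 (adjusted p = 0.188; 0.10 without DMSO replicate 1, adjusted p = 0.0462). SLC4A7, the sodium bicarbonate cotransporter NBCn1, averaged 181, 215 and 166 CPM in DMSO, GSK591 and MS023, with log2 changes of 0.25 ± 0.04 and -0.12 ± 0.04.

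SLC4A4, the electrogenic sodium bicarbonate cotransporter NBCe1, was the member that fell in GSK591. It had 30.7, 27.7 and 27.7 CPM in DMSO, 21.4, 20.0 and 19.9 in GSK591 and 22.9, 24 and 23.8 in MS023. All treated libraries lay below DMSO, with log2 changes of -0.49 ± 0.05 (adjusted p = 1.31e-06) and -0.28 ± 0.05 (adjusted p = 0.000387). The MS023 call was absent in all fits of FPKM.

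SLC4A5, its relative NBCe2, had 1.5, 1.54 and 1.84 CPM in DMSO, 4.01, 5.24 and 4.86 in GSK591 and 1.54, 1.80 and 1.67 in MS023. DMSO and MS023 overlapped and GSK591 was higher, with a log2 change of 1.53 ± 0.14 (2.89-fold, adjusted p = 2.43e-07), against 0.02 ± 0.16 in MS023 (adjusted p = 0.919). It overlaps MTHFD2 on the other strand by 1324 bases, a gene at 193 CPM with log2 changes of -0.42 and 0.07. It also shares 127173 bases with RP11-287D1.3 on the same strand, a gene not in the count table. Reads of the shared bases cannot be told apart. SLC4A3, the anion exchanger AE3, averaged 3.46 CPM in DMSO, 7.52 in GSK591 and 5.30 in MS023, with 1.13 ± 0.11 (adjusted p = 4.98e-07) and 0.62 ± 0.11 (adjusted p = 0.00039).

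SLC4A11, a membrane protein that conducts protons and is needed in the cornea, rose with both inhibitors. It had 9.79, 8 and 9.38 CPM in DMSO, 17.8, 16.9 and 17 in GSK591 and 16.0, 17.3 and 17.4 in MS023. Its log2 changes were 0.93 ± 0.07 (adjusted p = 3.99e-08) and 0.90 ± 0.07 (adjusted p = 1.09e-07), and the difference between the inhibitors was -0.03 ± 0.07 (adjusted p = 0.726). SLC4A8, a sodium driven chloride and bicarbonate exchanger, averaged 2.69, 4.87 and 5.68 CPM, with 0.86 ± 0.13 and 1.08 ± 0.12. It overlaps GALNT6 on the other strand, at 10.8 CPM with log2 changes of 0.70 and 0.51.

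Sodium and proton exchangers of the SLC9 family differed by member. SLC9A2 and SLC9A8 were not called in any comparison, at 26.7 and 29.6 CPM in DMSO. SLC9A7, an exchanger of the Golgi, had 32.5, 29 and 30.8 CPM in DMSO, 52.1, 54.7 and 48.9 in GSK591 and 27.6, 28.5 and 28.3 in MS023. GSK591 was well above both other groups, at 0.76 ± 0.05 (1.69-fold, adjusted p = 8.18e-09), and MS023 was at -0.13 ± 0.05 (adjusted p = 0.0545). The MS023 value was called without DMSO replicate 2 (adjusted p = 0.03) or GSK591 replicate 2 (adjusted p = 0.0464).

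SLC9A9, an endosomal exchanger, averaged 0.471 CPM in DMSO, 1.43 in GSK591 and 0.834 in MS023, with 1.57 ± 0.21 (adjusted p = 1.45e-05) and 0.78 ± 0.23 (adjusted p = 0.0103).

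SLC9A5 averaged 3.02, 6.15 and 5.09 CPM, with log2 changes of 1.05 ± 0.15 in GSK591 and 0.77 ± 0.15 in MS023. Of its bases, 9976 lie under FHOD1 on the other strand, a gene at 60.4 CPM with log2 changes of 0.50 and 0.54. SLC8A1, the sodium and calcium exchanger NCX1, averaged 7.33 CPM in DMSO, 8.44 in GSK591 and 9.21 in MS023. It rose in MS023 (0.33 ± 0.07, adjusted p = 0.00117). The GSK591 value, 0.21 ± 0.07 (adjusted p = 0.02), was not called without DMSO replicate 2, DMSO replicate 3 or GSK591 replicate 2 (adjusted p of 0.0536, 0.0511 and 0.0908). SLC8A1 shares 157940 bases with SLC8A1-AS1 on the other strand, at 0.228 CPM with a log2 change of 4.49 in GSK591. SLC8A2 (NCX2) had 55, 54 and 166 counts over the groups, a log2 change of 1.49 ± 0.22 in MS023 (adjusted p = 5.97e-05).

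The SLC16 family carries lactate, pyruvate, creatine and aromatic amino acids, among others. All 13 of its members had enough counts to test. GSK591 called 7 higher and 3 lower (background 62.6%), MS023 8 higher and 1 lower (background 51.0%), and between the inhibitors 5 were higher and 3 lower in MS023 (background 65.4%). SLC16A4 (hg19 chr1:110905470-110933704) was the most abundant, with 123, 127 and 118 CPM in DMSO, 147, 150 and 149 in GSK591 and 70.4, 67.7 and 66.5 in MS023. The 3 groups were separate, with MS023 lowest. The log2 changes were 0.28 ± 0.04 (adjusted p = 9.13e-06) and -0.85 ± 0.04 (1.80-fold lower, adjusted p = 1.5e-10), and MS023 was below GSK591 by -1.13 ± 0.04 (adjusted p = 1.81e-12).

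The lactate transporter SLC16A1 (MCT1) and its relative SLC16A5 (MCT6) went the other way. SLC16A1 had 90.7, 87.9 and 87.2 CPM in DMSO, 73.0, 73.0 and 73.8 in GSK591 and 102, 102 and 99.9 in MS023. The groups did not overlap, with log2 changes of -0.27 ± 0.03 (adjusted p = 2.05e-06) and 0.19 ± 0.03 (adjusted p = 9.77e-05). SLC16A5 averaged 47.8, 39.9 and 62.2 CPM, with -0.26 ± 0.05 (adjusted p = 0.000483) and 0.38 ± 0.05 (adjusted p = 2.03e-05).

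SLC16A14, an orphan member, had 4.06, 3.45 and 3.24 CPM in DMSO, 5.44, 6.28 and 7.22 in GSK591 and 7.26, 7.42 and 7.33 in MS023, with 0.84 ± 0.11 (adjusted p = 1.18e-05) and 1.05 ± 0.11 (adjusted p = 1.89e-06). SLC16A9, a carnitine and creatine carrier, had 2.59, 2.75 and 2.10 CPM in DMSO, 3.39, 4.02 and 4.86 in GSK591 and 4.64, 6.09 and 6.13 in MS023. All its treated libraries exceeded DMSO, with 0.74 ± 0.16 (adjusted p = 0.00101) and 1.18 ± 0.15 (adjusted p = 1.82e-05). The difference between the inhibitors, 0.44 ± 0.14 (adjusted p = 0.0154), was not called without GSK591 replicate 1, GSK591 replicate 2, MS023 replicate 2 or MS023 replicate 3 (adjusted p of 0.0725, 0.0533, 0.0592 and 0.0651).

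SLC16A13, a lactate carrier of the liver, fell in GSK591 from 21.9, 17.9 and 18.5 CPM to 12.6, 13.0 and 13.0, a log2 change of -0.59 ± 0.07 (adjusted p = 4.9e-06). In MS023 it was at 17.3, 18.0 and 18.7 CPM, within the DMSO range on 2 of 3 libraries, and was not called (-0.11 ± 0.07, adjusted p = 0.223). SLC16A10, the aromatic amino acid carrier TAT1, averaged 0.808 CPM in DMSO, 0.650 in GSK591 and 1.44 in MS023, with 0.84 ± 0.20 in MS023 (adjusted p = 0.00328). SLC16A12, a creatine carrier of the kidney and eye lens, had 9, 95 and 8 counts over the groups and a log2 change of 3.40 ± 0.40 in GSK591 (adjusted p = 3.47e-06). It passed the count filter only through its GSK591 libraries, so this p-value is no independent support for the increase.

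Smaller families carry urea, peptides, bile acids, metals and citrate. SLC14A1, the urea channel UT-B of red cells and the kidney (hg19 chr18:43304092-43332485), had the largest increase in GSK591 of any member averaging at least 1 CPM over the 6 libraries. It reached that mean only through its GSK591 libraries, so the ranking depends on the increase itself. Its libraries held 0.406, 0.325 and 0.367 CPM in DMSO, 1.93, 3.01 and 2.66 in GSK591 and 0.351, 0.468 and 0.353 in MS023, which are 45, 312 and 51 counts. GSK591 stood apart, while DMSO and MS023 overlapped. The log2 change was 2.81 ± 0.23 in GSK591 (7.00-fold, adjusted p = 6.98e-08) and 0.09 ± 0.31 in MS023 (adjusted p = 0.824). The inhibitors differed by -2.72 ± 0.22 (adjusted p = 5.64e-08). SLC14A1 shares 23089 bases with RP11-116O18.3 on the other strand, a gene not in the count table, and their reads there cannot be told apart.

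SLC15A4, a lysosomal carrier of histidine and small peptides, had 30.7, 28.4 and 29.7 CPM in DMSO, 21.3, 21.7 and 21.7 in GSK591 and 31.6, 32.4 and 32.1 in MS023. It was lower in GSK591 (-0.46 ± 0.04, adjusted p = 3.49e-07). The MS023 value, 0.11 ± 0.04 (adjusted p = 0.0347), was not called without DMSO replicate 2 or 3, or MS023 replicate 2 or 3 (adjusted p of 0.0793, 0.0686, 0.110 and 0.10). SLC10A7, an orphan of the bile acid carrier family needed for skeletal growth, had 6.88, 6.81 and 6.85 CPM in DMSO, 4.22, 3.76 and 3.92 in GSK591 and 6.65, 7.36 and 5.71 in MS023, a log2 change of -0.79 ± 0.10 in GSK591 (adjusted p = 6.26e-06). SLC10A3, the family's most abundant member per length, was not called in any comparison, at 20.8, 18.4 and 19.4 CPM. Without DMSO replicate 3 it was called lower in GSK591 (log2 -0.28, adjusted p = 0.00342) and in MS023 (log2 -0.20, adjusted p = 0.0281).

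SLC11A1, the metal ion transporter NRAMP1 of phagosomes, had 1.53, 1.34 and 1.40 CPM in DMSO, 0.652, 0.658 and 0.981 in GSK591 and 1.23, 0.859 and 0.611 in MS023. It was lower in GSK591 (-0.87 ± 0.25, adjusted p = 0.00694). The MS023 value, -0.63 ± 0.24 (adjusted p = 0.0377), was called in only 1 of the 6 fits that left out a DMSO or MS023 library, the one without MS023 replicate 1 (log2 -0.96, adjusted p = 0.00553). In the other 5 the adjusted p ran from 0.0601 to 0.164, the highest without MS023 replicate 3 (log2 -0.42). SLC13A5, the citrate importer NaCT, averaged 0.332, 0.809 and 0.659 CPM, with 1.39 ± 0.34 in GSK591 (adjusted p = 0.00233). In MS023 it was at 1.07 ± 0.35 (adjusted p = 0.0182), a call lost without DMSO replicate 2, DMSO replicate 3 or MS023 replicate 2 (adjusted p of 0.0839, 0.0685 and 0.0638).

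The 35 members not tested included 34 in the count table, whose highest sum over a group was 38 counts, for SLC2A2 (GLUT2) in MS023. No read was counted in any library for SLC5A7, SLC5A8, SLC10A2 and SLC13A1, which carry choline, short-chain fatty acids, bile acids and sulfate. Among other carriers of differentiated kidney or gut, SLC12A1 had 1, 0 and 0 counts over the DMSO, GSK591 and MS023 groups, SLC12A3 had 5, 5 and 15, and SLC5A1 had 6, 12 and 5. At this depth no difference could be shown for them.

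Transport also depends on partner subunits and on the sodium pump. Of 31 symbols listed as partners, scaffolds or pump subunits, 30 matched a gene and 24 were tested. Collectrin was listed under both CLTRN and TMEM27. GSK591 called 7 higher (background 30.1%) and 9 lower (background 32.4%). MS023 called 12 higher (background 25.1%) and 2 lower (background 25.9%), so its calls were mostly increases. At 1 CPM or more, the largest increases in GSK591 were those of PDZK1IP1 (2.37 ± 0.17, from 0.635 to 3.34 CPM), a small membrane protein known to bind sodium glucose carriers, of TMEM27 (2.35 ± 0.26, from 0.435 to 2.25 CPM), collectrin, which brings SLC6 amino acid carriers to the surface, and of STOM (0.47 ± 0.04). SLC9A3R2, the scaffold NHERF2 of sodium and proton exchangers, fell in GSK591 from 99.4 to 42.2 CPM (-1.24 ± 0.07, adjusted p = 2.35e-09) and rose in MS023 to 181 CPM (0.87 ± 0.07, adjusted p = 1.69e-07). TESC, a calcium binding cofactor of a sodium and proton exchanger, fell in GSK591 (-0.90 ± 0.06), as did the pump subunit ATP1B3 (-0.73 ± 0.05). In MS023 the scaffold PDZK1 (1.44 ± 0.14) and EMB (0.55 ± 0.06), embigin, a chaperone of monocarboxylate carriers, were also higher, and ARL6IP5 (-0.54 ± 0.04) and ATP1B3 (-0.16 ± 0.05) were lower. BSG, or basigin, the chaperone of SLC16A1, averaged 475 CPM in DMSO, 336 in GSK591 (-0.50 ± 0.04) and 474 in MS023.

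All 26 listed regulators of transport were tested, with 9 higher and 9 lower in GSK591 (background 62.6%) and 12 higher and 7 lower in MS023 (background 51.0%). WNK4, a kinase upstream of NKCC1 and the KCC cotransporters, averaged 5.24, 13.4 and 9.21 CPM (1.35 ± 0.08 in GSK591). ARRDC4, an arrestin that removes glucose transporters from the surface, was higher with both (1.08 ± 0.10 and 1.11 ± 0.09). KLHL3, which directs WNK kinases to degradation, was higher in GSK591 (0.85 ± 0.13). The kinase adaptor CAB39L (-1.26 ± 0.12) and the transcription factor HNF4A (-0.89 ± 0.04) were lower there. SGK1, a kinase that raises the surface level of many carriers, averaged 77.3 CPM in DMSO, 46.9 in GSK591 and 31.4 in MS023 (-0.72 ± 0.04 and -1.30 ± 0.04). TXNIP, which restrains glucose uptake, rose in MS023 from 2.94 to 10.0 CPM (1.81 ± 0.19) and was not called in GSK591 (0.20 ± 0.22). In MS023 the deubiquitinase USP2 (1.05 ± 0.14) was higher, and the ubiquitin ligase NEDD4 (-0.38 ± 0.04) and HNF4A (-0.37 ± 0.04) were lower.

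Carbonic anhydrases make the bicarbonate that SLC4 carriers move. Of 15 listed genes 9 were tested, with 1 higher and 5 lower in GSK591 (background 62.6%) and 1 higher and 4 lower in MS023 (background 51.0%). CA9, a surface enzyme of tumour cells, averaged 6.48 CPM in DMSO, 2.42 in GSK591 and 2.02 in MS023 (-1.39 ± 0.22 and -1.65 ± 0.22). In GSK591 the cytosolic CA2 (-1.74 ± 0.13) and the inactive relative CA11 (-1.89 ± 0.09) were lower, and CA8 (0.39 ± 0.05) was higher. In MS023 CA11 (0.47 ± 0.08) was higher, and CA5B (-0.60 ± 0.07) and CA8 (-0.59 ± 0.05) were lower. The members' median log2 changes in these 3 lists were 0.03, 0.05 and -0.45 in GSK591 and 0.13, 0.18 and -0.08 in MS023, beside 0.0058 and -0.003 over all genes tested.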

How the data were processed

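RNA of 9 A549 libraries was sequenced after removal of ribosomal RNA, per the labels' protocols. The authors deposited a table of read counts per gene, whole numbers without normalisation, and a table of FPKM for each library (fragments per length and depth, in a Cufflinks layout). Per the submitters' processing notes, cutadapt, STAR, featureCounts and DESeq2 were used with hg19. Tool versions, the annotation and the strand setting were not given in the sources used here, so genes that overlap are uncertain.

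Symbols and hg19 positions came from the FPKM tables, matched by identifier. The analysis of counts used edgeR 4.0.16 (R 4.3.3): filterByExpr (minimum count 10, minimum total 15), TMM scaling, and 1 quasi-likelihood fit of all 9 libraries by group, with no covariate. Benjamini-Hochberg adjustment ran over 18292 genes, with a threshold of 0.05, and tests are two-sided. CPM uses the TMM-scaled library size. A log2 change is given with ± its standard error, and a level with ± its SD (n = 3). Reads are not independent molecules. Replicate agreement was checked, and no pair of libraries was a duplicate within sampling noise. The script was tested on simulated data.

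Members and lists were chosen with earlier results of these data known, so lists are described and not tested. Named are, per comparison, the 10 largest increases and 10 largest decreases among called members at 1 CPM or more, each family's highest by FPKM, the 4 amino acid response members, and up to 3 genes each way per list at 1 CPM or more. A few genes that this rule picks are not reported here. Others are named for their family or counts, after their values were seen. Alternatives were other scalings and filters, DESeq2 1.42.0, a replicate block, libraries left out, and limma 3.58.1 on log2 of the deposited FPKM plus 1 or 0.1.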

Additional observations from a re-analysis of the deposited data

How the results depend on the processing

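Leaving out each library in turn gave 60 to 68 called members in GSK591 against DMSO (66 with all), 47 to 59 in MS023 against DMSO (56), 61 to 67 between the inhibitors (63) and 75 to 84 among the 3 groups (80). The members' median log2 change then ran from 0.256 to 0.315, from 0.187 to 0.252 and from -0.162 to -0.052 in the 3 comparisons; the last value was without GSK591 replicate 1, and without GSK591 replicate 2 it was -0.10, where all libraries gave -0.16. Without both DMSO replicate 1 and GSK591 replicate 3 the medians against DMSO were 0.331 and 0.249. Scaling by total counts gave a median of 0.319 in GSK591, where the median of all genes moved to 0.066. A filter of 1 CPM in 3 libraries gave medians of 0.241 in GSK591 and -0.032 between the inhibitors. With limma on log2(FPKM + 1), after a filter of FPKM 1 in 3 libraries that left 49 members, 31, 27, 32 and 39 members were called, with medians of 0.085, 0.089 and 0.042, the last turned in sign, beside -0.096, -0.007 and 0.093 over all genes in that fit, and 18 higher and 14 lower between the inhibitors. With a pseudocount of 0.1 the counts were 32, 27, 32 and 39, and the medians 0.117, 0.123 and 0.051, the last again turned, beside -0.109, -0.007 and 0.106 over all genes. With no filter and a pseudocount of 1, GSK591 called 40 members and MS023 31, the medians were 0.079, 0.068 and -0.015, and the lists of partners, regulators and carbonic anhydrases together had 25 calls in MS023 against 38. The filter leaves fewer genes to test; other causes were not tested. In FPKM, SLC6A16 in GSK591 turned from -0.24 to 0.0568, 0.1133 with a pseudocount of 0.1. DESeq2 called 57, 49, 62 and 78 members. Deviations of same-numbered libraries correlated at -0.43 to 0.26 over 9 pairs, and those of differently numbered libraries at -0.43 to 0.35. This showed no pairing by replicate number but, with 3 libraries per group, cannot exclude it. A fit with the replicate block called 67, 53, 63 and 79 members. Of 100 called values of the 43 named members tested, 92 kept their call and direction under every alternative on counts that could test them, and 65 also in FPKM; 17 to 20 alternatives gave a value for each, since filters on FPKM or CPM removed low members. Depth limits the members under 1 CPM.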
